A study of Mus musculus with 27 samples.

Results

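The genes described are Pparg and 8 genes by which a liver takes up and carries lipid, namely Cd36, Slc27a1, Slc27a4, Lpl, Vldlr, Fabp2, Fabp4 and Fabp5. They were chosen by name, with earlier results of these data known. Counts of these genes and of the gene lists used later, set beside all genes, are therefore descriptive and no independent test. The 9 genes stand among 18820 genes with a probe set of their own on the arrays. The 9 genes had 11 probe sets, 3 of them for Fabp5, and the probe set of highest mean value stood for each gene. All 9 passed the study's minimum, an intensity above 20 on at least 5 arrays, which 13603 genes passed.

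PPARγ, the product of Pparg, is a nuclear receptor that binds fatty acids and, paired with a retinoid X receptor, switches on genes for lipid uptake and storage. It is best known as the regulator that makes fat cells, is sparse in lean liver and is known to rise in fatty liver. Lipid enters a hepatocyte as free fatty acid, helped by CD36 and fatty acid transport proteins at the membrane, or with lipoproteins, which lipoprotein lipase digests and the VLDL receptor binds. Fatty acid binding proteins then carry the fatty acid through the cell.

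RNA from the livers of 27 mice, all C57BL/6J males, was hybridised to whole-transcript Affymetrix arrays, with 1 array for each mouse. The mice were 12 months old and had eaten 1 of 4 diets since 9 weeks of age, after 2 weeks of acclimatization on AIN-93G. C-fed mice (n = 7) ate AIN-93W freely and MF-fed mice (n = 7) freely ate AIN-93W-MF, in which fat gives 25% of the energy. CR-fed mice (n = 6) were given a daily portion of AIN-93W-CR, set at 30% less energy than the mean intake of C-fed mice. The intake that the paper measured in CR was lower than this target. INT-fed mice (n = 7) alternated between a week of free MF and a week set at 40% less energy than C-fed mice ate. Their livers were taken in a week of free MF. All mice were fasted for 4 h, given 0.5% carboxymethyl cellulose by gavage and fasted for a further 6 h. The CR portion was served in the afternoon and the mice were killed in the afternoon. The time since the last meal may thus differ between CR and the freely fed mice, and cannot be told apart from restriction. No mouse carried a mutation or a drug, and the liver was taken whole, so fewer cells of a type and less RNA per cell cannot be told apart.

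The arrays were alike, with 63.8% to 65.6% of probe sets above an intensity of 20 and correlations between arrays from 0.982 to 0.992. The hepatocyte markers Alb, Apoa1, Ttr, Cps1, Cyp2e1, Tat and Hnf4a were above the minimum on all 27 arrays. Of the fat cell markers, Adipoq and Lep exceeded an intensity of 20 on 0 arrays, Retn on 16, and Plin1, Lipe and Car3, which liver also expresses, on 27. Of the intestinal markers, Sis, Alpi and Muc2 exceeded it on 0 arrays, Cdx2 on 2, Vil1 on 5 and Lct on 20. Arrays carry no read depth, and precision rests on the number of mice.

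The windows before the start sites are shown because PPARγ acts at DNA that holds the motif AGGTCA, and because several of the 9 genes moved together between livers. RefSeq on GRCm38.p6 gave 11 windows of 250 bases for 6 of the 9 genes, Pparg, Cd36, Fabp2, Vldlr, Slc27a1 and Slc27a4. On either strand, the motif stood in 3 of the 11 windows and in 14.02% of 32851 windows of all genes. Those 3 windows were before Pparg and Cd36 starts, and they are printed with a Vldlr and a Slc27a4 window that lack it. Capitals mark the motif, read as TGACCT on the other strand. Positions are counted back from the start site, with -1 the base before it, and name the first base of the match.
Pparg, chr6:115360894-115361143, plus strand, motif at -28: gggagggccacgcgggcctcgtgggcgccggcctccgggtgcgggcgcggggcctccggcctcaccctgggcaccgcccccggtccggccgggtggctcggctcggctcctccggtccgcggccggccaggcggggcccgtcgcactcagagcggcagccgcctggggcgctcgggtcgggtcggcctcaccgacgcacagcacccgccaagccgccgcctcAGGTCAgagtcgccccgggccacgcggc
Pparg, chr6:115362099-115362348, plus strand, motif at -9: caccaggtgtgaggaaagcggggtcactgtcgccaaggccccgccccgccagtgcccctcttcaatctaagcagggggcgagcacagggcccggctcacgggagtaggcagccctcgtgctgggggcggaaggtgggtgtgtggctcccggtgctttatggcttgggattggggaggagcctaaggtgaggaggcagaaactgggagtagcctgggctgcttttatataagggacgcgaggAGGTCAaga
Cd36, chr5:17835897-17836146, minus strand, motif at -228: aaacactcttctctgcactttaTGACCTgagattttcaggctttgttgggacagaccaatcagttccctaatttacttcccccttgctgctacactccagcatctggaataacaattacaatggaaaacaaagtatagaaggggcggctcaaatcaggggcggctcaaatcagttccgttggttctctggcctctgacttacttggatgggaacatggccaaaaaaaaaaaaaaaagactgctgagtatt
Vldlr, chr19:27216234-27216483, plus strand, no motif: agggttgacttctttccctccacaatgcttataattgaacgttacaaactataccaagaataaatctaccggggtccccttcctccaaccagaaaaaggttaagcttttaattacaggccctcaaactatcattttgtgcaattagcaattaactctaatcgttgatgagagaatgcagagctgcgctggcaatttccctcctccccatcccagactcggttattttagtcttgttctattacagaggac
Slc27a4, chr2:29802384-29802633, plus strand, no motif: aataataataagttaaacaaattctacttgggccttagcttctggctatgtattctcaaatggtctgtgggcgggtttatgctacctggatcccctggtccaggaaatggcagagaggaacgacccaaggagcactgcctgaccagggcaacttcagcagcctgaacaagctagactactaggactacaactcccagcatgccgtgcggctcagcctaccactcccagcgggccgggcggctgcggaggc
The paired element that a PPAR and its partner bind together, searched as 2 copies of AGGNCA with any 1 base between them, stood in 0 of the 11 windows and in 0.338% of all windows, with both strands searched. A match is a run of letters and not a measured site. Each gene had 1 value per liver, so the levels below do not separate the 3 Pparg starts.

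A gene was called where limma gave an adjusted p (Benjamini-Hochberg, 13603 genes) under 0.05, and log2 fold changes are given with their standard error (SE). CR against C asks how these genes differ after long restriction of a low-fat diet. Of the 9 genes, 1 rose, Vldlr, where 8.46% of all genes tested did, and 1 fell, Fabp2, where 9.05% did. Against MF, 2 of the 9 rose in CR, Fabp5 and Vldlr, beside 8.57% of all genes, and 2 fell, Fabp2 and Slc27a4, beside 11.2%. INT against CR compares the restricted diets, and there 2 of 9 were higher in INT, Fabp2 and Slc27a1, beside 8.37% of all genes, and 1 lower, Vldlr, beside 6.62%. The median log2 fold change of the 9 genes was -0.01 in CR against C, -0.21 in CR against MF and -0.35 in INT against CR, and that of all genes was 0.00 in each.

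Between INT, MF and C limma called 0 of the 9 genes in each comparison, and 0% of all genes in either direction. At an unadjusted p under 0.05, 6 of the 9 differed between INT and MF, beside 10.9% of all genes. Between INT and C 2 of 9 did, beside 6.78%, and between MF and C 2 of 9, beside 3.41%. The methods' one-way test with Tukey's pairwise comparison, also unadjusted over genes, passed 3 of the 9 between INT and MF (Cd36, Slc27a4 and Fabp5), 0 between INT and C and 1 between MF and C (Fabp5). Of the 13603 genes, 356, 223 and 80 passed that test in the same order. The comparisons share their mice, so that CR-fed livers enter 3 of the 6.

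**Figure D1:**
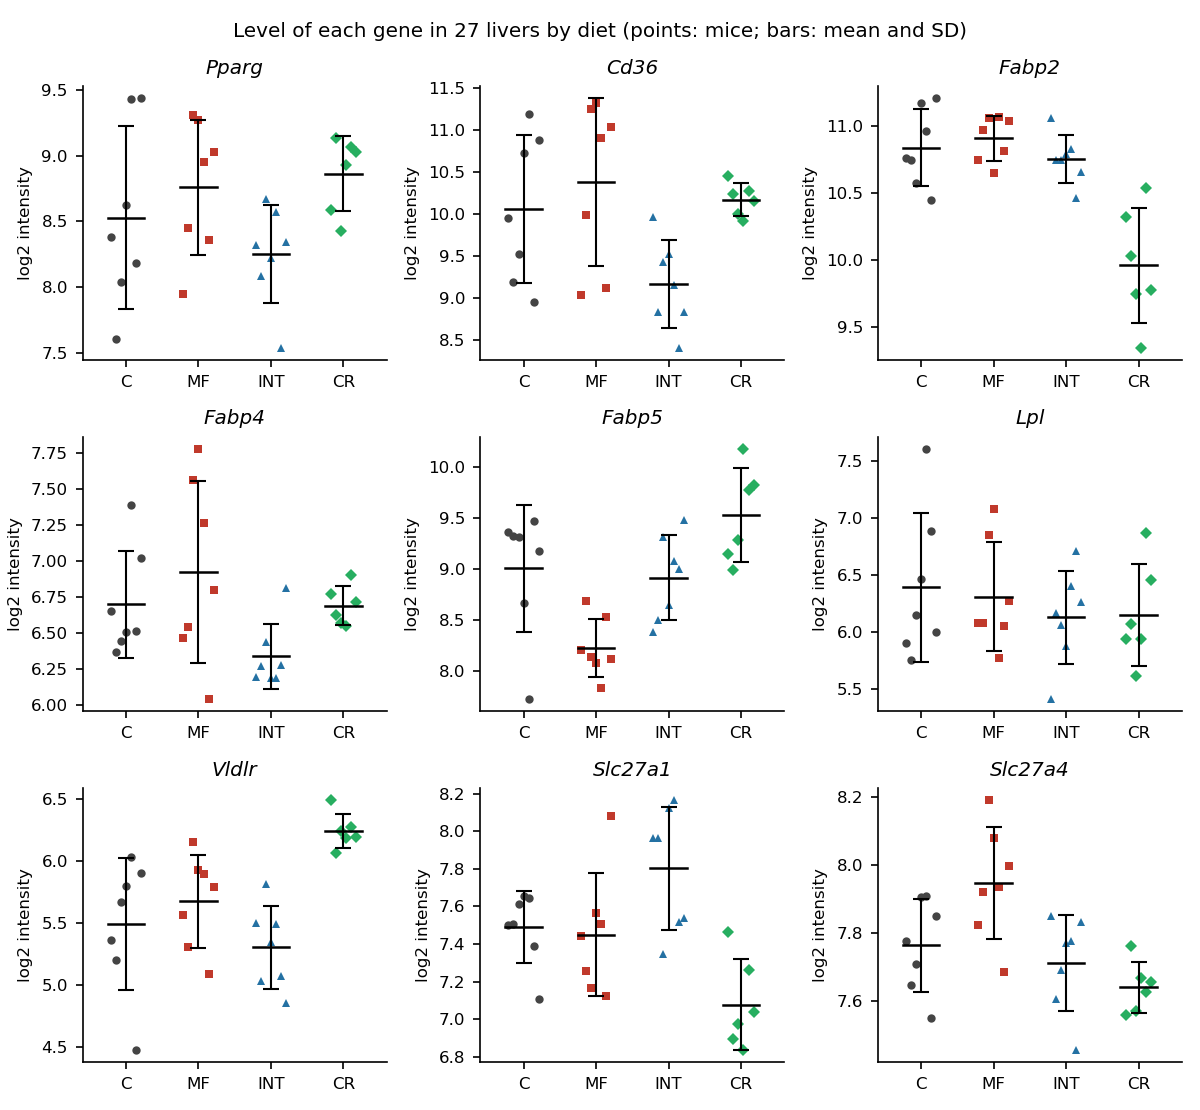
Level of each of the 9 genes in the 27 livers (log2 intensity) by diet, with 1 point per mouse and the mean and SD of the diet as bars. Vldlr in the 6 CR-fed livers sits between 6.06 and 6.49, above all C- and INT-fed livers, and Fabp2 is low in CR, while Cd36 spans 8.96 to 11.33 in C and MF but 9.92 to 10.45 in CR.

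Pparg, the receptor itself, showed wide spread between livers of the same diet. Its log2 intensity had a lowest, median and highest value of 7.60, 8.38 and 9.44 in C and of 7.95, 8.95 and 9.32 in MF. It had 7.53, 8.32 and 8.67 in INT, and 8.43, 8.98 and 9.13 in CR. INT replicate 6, at 7.53, was the lowest of all livers, and replicates 5 and 7 of C, both at 9.44, stood above every other liver. The mean rose in the order INT, C, MF, CR, and no neighbours in that order differed beyond their spread. INT was lower than CR by a log2 fold change of -0.62 (SE 0.26, limma adjusted p = 0.112) and lower than MF by -0.51 (SE 0.25, adjusted p = 0.458), and neither passed. CR against C came to 0.33 (95% interval -0.19 to 0.86). The INT against CR difference passed when only those diets entered the fit (adjusted p = 0.0185).

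Cd36, the fatty acid translocase of the cell membrane, was the gene with the widest range within a diet. Its lowest, median and highest log2 intensity were 8.96, 9.96 and 11.19 in C, and 9.03, 10.91 and 11.33 in MF. They were 8.41, 9.15 and 9.97 in INT, and 9.92, 10.20 and 10.45 in CR. Every CR-fed liver lay in a narrow band, and C- and MF-fed livers lay on both sides of it. In C, 3 livers were above all CR-fed livers and 3 below, and in MF 4 were above and 2 below. Of the 7 INT-fed livers, 6 were below all CR-fed livers. The difference of INT against MF was -1.22 (SE 0.36, unadjusted p = 0.00236, limma adjusted p = 0.327), against CR -1.01 (SE 0.38, adjusted p = 0.0720) and against C -0.90 (SE 0.36, adjusted p = 0.649). None of the 3 passed. INT against CR passed with only those diets in the fit (adjusted p = 0.00244) and without INT replicate 1 (-1.14, adjusted p = 0.0491) or with array weights (0.0390).

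The fatty acid transport proteins FATP1 (Slc27a1) and FATP4 (Slc27a4) bring fatty acids across membranes and couple them to coenzyme A. Slc27a1 ran from 7.11 over a median of 7.51 to 7.66 in C, and from 7.12 over 7.44 to 8.08 in MF. It ran from 7.35 over 7.96 to 8.16 in INT, and from 6.84 over 7.01 to 7.46 in CR. INT-fed livers were highest and CR-fed livers lowest, and only CR replicate 1, at 7.46, stood above the lowest INT-fed liver, replicate 3 at 7.35. INT exceeded CR by 0.73 (SE 0.15, limma adjusted p = 0.000885). CR against C, at -0.41 (SE 0.15), missed the threshold with an adjusted p of 0.0517, and CR against MF at -0.37 (SE 0.15) with 0.0752. Leaving out 1 mouse at a time brought the CR against C difference past the threshold in 8 of 27 cases (C replicate 7, MF 6 and 7, INT 3, 4 and 5, CR 1 and 5), with adjusted p between 0.0238 and 0.123 over all 27. It also passed with array weights (0.0446), with arrays centred on their median (0.0389), with the minimum set on all arrays (0.0466), with only those diets in the fit (0.0190) and within replicates 1 to 4 (0.0464). The difference from MF passed with array weights (0.0356) and without MF replicate 6 (0.0442) or CR replicate 1 (0.0362).

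Slc27a4 had the smallest SD of the 9 genes in each diet. It ran from 7.55 over 7.78 to 7.91 in C, and from 7.69 over 7.94 to 8.19 in MF. It ran from 7.46 over 7.77 to 7.85 in INT, and from 7.56 over 7.64 to 7.76 in CR. MF-fed livers were the highest, and MF replicate 6, at 7.69, was the only one of them within the CR range. CR was below MF by -0.31 (SE 0.08, limma adjusted p = 0.00459), a fold of 1.24. INT against MF, at -0.24 (SE 0.07, adjusted p = 0.345), and MF against C, at 0.18 (SE 0.07, adjusted p = 1.0), did not pass.

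Vldlr, the receptor that binds triglyceride-rich lipoproteins, set CR apart from the other diets. Its log2 intensity had a lowest, median and highest value of 4.48, 5.67 and 6.03 in C and of 5.09, 5.79 and 6.15 in MF. It had 4.86, 5.35 and 5.82 in INT, and 6.06, 6.22 and 6.49 in CR. No C- or INT-fed liver reached the CR range, and 1 MF-fed liver, replicate 3 at 6.15, did. CR exceeded C by 0.75 (SE 0.20, limma adjusted p = 0.00796), a fold of 1.68. INT was below CR by -0.94 (SE 0.20, adjusted p = 0.00131). CR against MF, at 0.57 (SE 0.20, adjusted p = 0.0417), was the call closest to the threshold. It was lost with no intensity minimum (adjusted p = 0.0521) and with Tukey's pairwise comparison adjusted over genes (0.279). It was also lost with that test unadjusted over genes, within replicates 1 to 4 and within replicates 5 to 7. Without 1 mouse at a time it came to between 0.47 and 0.65, and it failed in 9 of 27 cases, on leaving out MF replicates 1, 2, 6 or 7 or CR replicates 1, 3, 4, 5 or 6 (adjusted p up to 0.0914).

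Lpl encodes lipoprotein lipase, which releases fatty acids from lipoproteins in the vessel lumen and is scarce in adult liver. It ran from 5.75 over 6.15 to 7.61 in C, and from 5.77 over 6.08 to 7.08 in MF. It ran from 5.41 over 6.16 to 6.71 in INT, and from 5.61 over 6.01 to 6.87 in CR. The 4 ranges overlapped, and C replicate 5, at 7.61, stood highest. No comparison passed in limma, and the largest difference, INT against C, was -0.27 (95% interval -0.79 to 0.25).

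Fabp2 encodes the fatty acid binding protein best known from the gut. Its lowest, median and highest log2 intensity were 10.45, 10.76 and 11.20 in C, and 10.65, 10.97 and 11.06 in MF. They were 10.47, 10.75 and 11.06 in INT, and 9.35, 9.91 and 10.54 in CR. The CR-fed livers were the lowest 6 but for replicate 5, at 10.54, which stood above C replicate 6 and INT replicate 6. CR was below C by -0.88 (SE 0.15, limma adjusted p = 8.96e-05), a fold of 1.84, and below MF by -0.94 (SE 0.15, adjusted p = 3.19e-05). INT exceeded CR by 0.79 (SE 0.15, adjusted p = 0.000332). These calls held on leaving out any 1 of the 27 mice. The summed intensity of 6 intestinal markers was 79.6 to 93.5 in C, 84.3 to 95.3 in MF, 84.0 to 96.5 in INT and 85.2 to 107 in CR. At most 2 of the 6 had a mean above 20 in any diet, so this sum is mostly background, and the part of gut tissue in the Fabp2 difference was not tested.

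Fabp4 encodes the binding protein of fat cells and macrophages. It ran from 6.37 over 6.51 to 7.39 in C, and from 6.04 over 6.80 to 7.78 in MF. It ran from 6.19 over 6.27 to 6.81 in INT, and from 6.55 over 6.67 to 6.91 in CR. MF-fed livers held both the lowest and the highest value of all livers, and INT-fed livers were low but for replicate 7 at 6.81. INT against MF, at -0.58 (SE 0.20, limma adjusted p = 0.355), did not pass, nor did any other comparison.

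Fabp5 encodes a binding protein of skin, macrophages and other cells. Its lowest, median and highest log2 intensity were 7.72, 9.31 and 9.47 in C, and 7.83, 8.13 and 8.68 in MF. They were 8.38, 9.00 and 9.48 in INT, and 8.99, 9.53 and 10.18 in CR. All MF-fed livers were below all CR-fed livers, and C replicate 5, at 7.72, was lowest of all. CR exceeded MF by 1.31 (SE 0.24, limma adjusted p = 0.000241), a fold of 2.48. MF against C, at -0.78 (SE 0.23, unadjusted p = 0.00213, adjusted p = 1.0), and INT against MF, at 0.69 (SE 0.23, adjusted p = 0.355), did not pass. INT against CR, at -0.62 (SE 0.24, adjusted p = 0.0820), passed only without C replicate 5 (adjusted p = 0.0275) when mice were left out in turn. A second Fabp5 probe set, annotated alike, gave 1.29 for CR against MF (adjusted p = 0.000303). The remaining one had a mean of 4.37 and exceeded an intensity of 20 on 15 arrays. Whether near-identical copies of the gene share these signals was not settled. Of the 8 macrophage markers, 3 rose in CR against MF, beside 8.57% of all genes, and 0 fell, beside 11.2%. Their summed intensity was 3744 to 5572 in CR and 2594 to 4139 in MF, and their part in the Fabp5 difference was not tested.

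**Figure D2:**
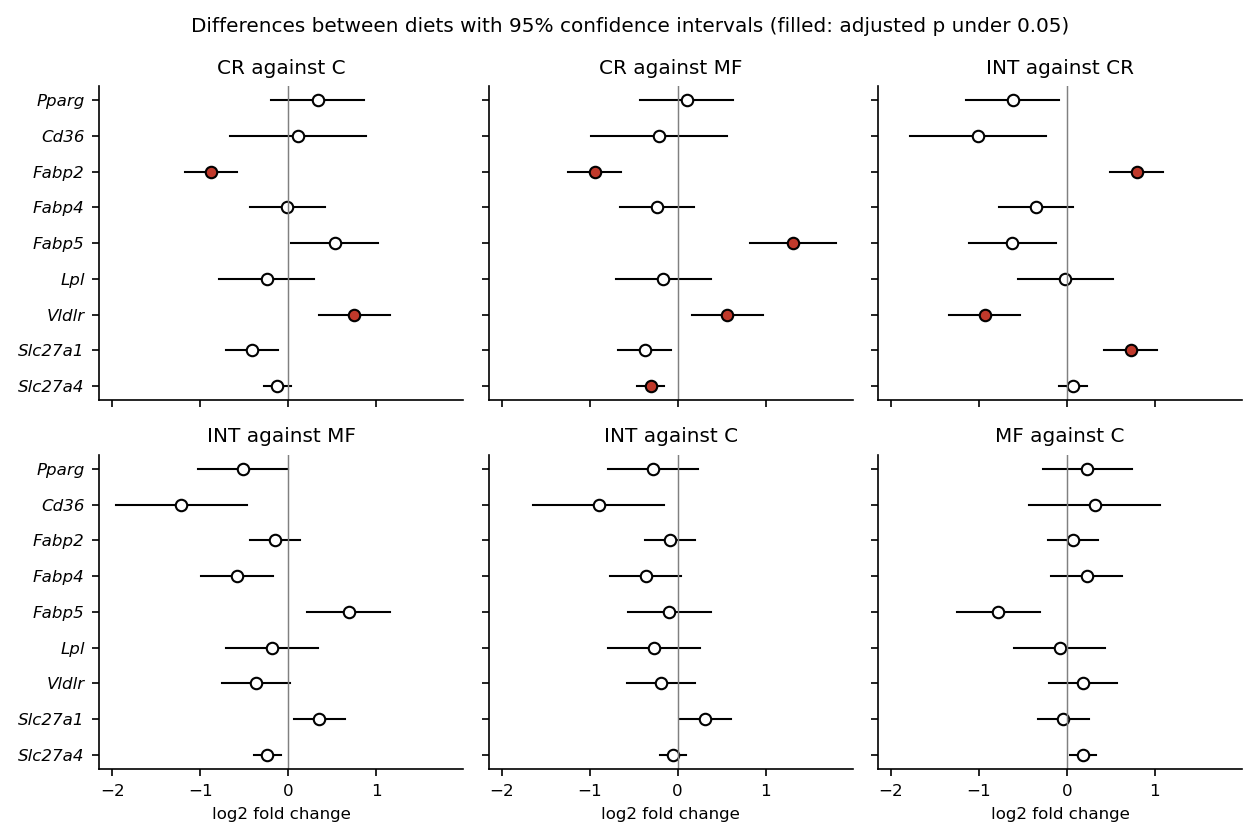
Log2 fold change of each gene in the 6 comparisons of diets, with its 95% confidence interval as a line. Filled points passed a limma adjusted p under 0.05, and they stand in the 3 comparisons with CR, where Fabp2 is -0.88 against C and Fabp5 1.31 against MF, and none stands in INT against MF, INT against C or MF against C.

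Livers of 1 diet also differed from each other, and the question was which genes followed Pparg from liver to liver. Each gene was fitted on Pparg with a mean per diet, and r is the correlation of deviations from the diet means. Of the other 8 genes, 4 rose with Pparg, where 4.68% of 13602 genes did, and 0 fell, where 1.23% did. Their median r was 0.51 and that of all genes 0.03. Levels measured on the same array share its RNA and scaling, and the points are livers of 1 organ. The paper reports that body weight and liver triglyceride also varied widely between mice within C and MF. Their part in these relations was not tested.

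Cd36 followed Pparg most closely of the 8. It rose by 1.22 on the log2 scale for each log2 unit of Pparg (SE 0.16, limma adjusted p = 6.16e-05), with r = 0.83 and Spearman's rho = 0.82 (permutation p = 2e-05 and 5e-05, 8 relations examined, adjusted p as given over all genes). Only 14 genes of 13602 had a higher r. C replicate 2 and MF replicate 1 had the deviations of Pparg from the diet mean that lay farthest from the median deviation, and without these 2 livers r was 0.79. Within diets, r was 0.90 in C (exact permutation p = 0.00635), 0.96 in MF (exact p = 0.000794) and 0.61 in INT (exact p = 0.129). In CR, where both genes varied little, it was 0.07 (exact p = 0.925), and whether the diets differ in r was not tested.

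Slc27a4 rose by 0.21 per unit of Pparg (SE 0.04, limma adjusted p = 0.00440), with r = 0.76 and rho = 0.79 (permutation p = 3e-05 and 2e-05). Without the 2 farthest livers r was 0.75, and within C, MF, INT and CR it was 0.76, 0.84, 0.74 and 0.81. Fabp4 rose by 0.56 (SE 0.11, adjusted p = 0.00376), with r = 0.70 and rho = 0.70 (permutation p = 0.00021 and 4e-04), and r = 0.67 without the farthest 2. Its r was 0.91 in C and 0.85 in MF (exact permutation p = 0.00794 and 0.0155), where Fabp4 had its wider spread, and 0.17 in INT and 0.28 in CR.

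Vldlr rose by 0.47 per unit of Pparg (SE 0.12, limma adjusted p = 0.0186), with r = 0.61 and rho = 0.66 (permutation p = 0.00579 and 0.00129), and r = 0.63 without the farthest 2. It was 0.65 in C, 0.78 in MF and 0.61 in INT, but -0.59 in CR (exact permutation p = 0.297). Without C replicate 5, the call was lost (0.44, adjusted p = 0.0684). Vldlr was thus the weakest of the 4 called genes, and the only one whose call rested on 1 liver.

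The remaining 4 genes were not called. Fabp2 had r = 0.41 and rho = 0.52 (permutation p = 0.0318 and 0.00937, limma adjusted p = 0.197). Without the farthest 2 livers its r was 0.40 with a permutation p of 0.0527, so that r hardly moved while p crossed 0.05 with 2 livers fewer. Its r was 0.14 over replicates 1 to 4 and 0.72 over replicates 5 to 7. Lpl had r = 0.41 and rho = 0.41 (permutation p = 0.0749 and 0.0533, adjusted p = 0.187). Over the same sets its r was 0.74 and -0.16, and without the farthest 2 livers 0.32. Slc27a1 had r = 0.01 and rho = 0.02 (permutation p = 0.961 and 0.913). Fabp5 was the only one of the 8 with a negative r, -0.32, and rho of -0.25 (permutation p = 0.169 and 0.217, adjusted p = 0.338).

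For the 4 called genes, the sets of replicates 1 to 4 (16 livers) and 5 to 7 (11 livers) both gave positive correlations. Cd36 had r of 0.84 and 0.90, Slc27a4 0.85 and 0.95, Fabp4 0.76 and 0.64 and Vldlr 0.61 and 0.85. With C- and MF-fed mice alone, an analysis added after the data were seen, all 4 remained past the threshold, with slopes of 1.39 for Cd36, 0.68 for Fabp4, 0.52 for Vldlr and 0.19 for Slc27a4.

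**Figure D3:**
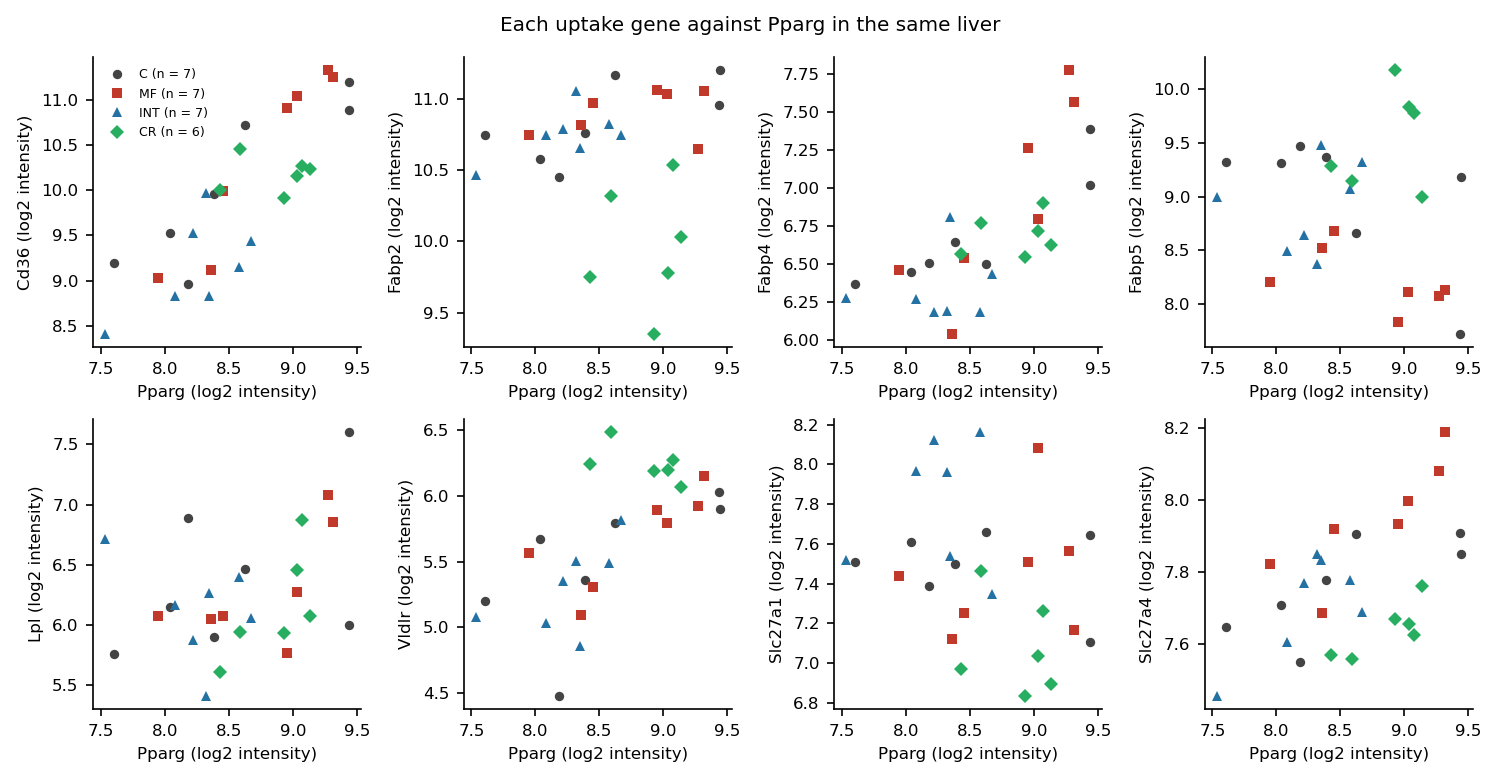
Log2 intensity of each of the other 8 genes (vertical axes) against that of Pparg (horizontal axes), with 1 point per liver and the diet by shape and colour. Cd36 climbs with Pparg in C and MF (r = 0.83 over all livers once diet means are removed). Within INT, Cd36 had r = 0.61 and rho = 0.36 (exact permutation p = 0.129 and 0.444). The CR-fed livers lie flat near 10.2 for Cd36 and high for Vldlr, and Fabp5 tends downward (r = -0.32).

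**Figure D4:**
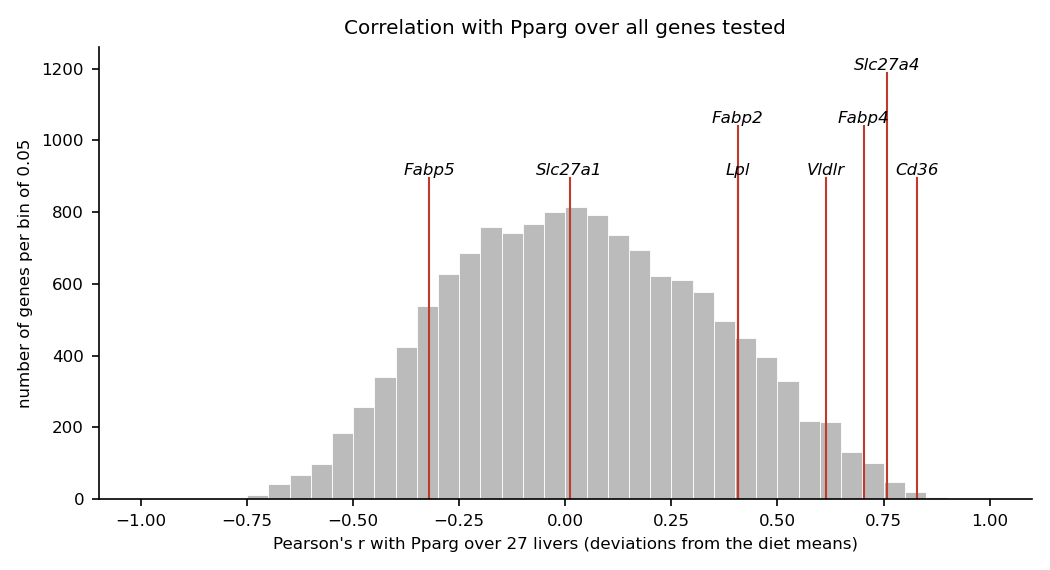
Number of genes by their correlation with Pparg over the 27 livers, in bins of 0.05, after removal of the diet means, with the 8 genes as red lines. Cd36 (0.83), Slc27a4 (0.76), Fabp4 (0.70) and Vldlr (0.61) stand in the right tail, Slc27a1 (0.01) near the centre, which lies at a median of 0.03, and Fabp5 (-0.32) to its left.

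The 10 genes of highest r with Pparg, over 27 livers and 13602 genes, were Slc22a27, Gpx4, Comtd1, Robo1, Uap1l1, Endod1, Hexa, Tfcp2l1, Vps35 and Ugdh. Their r ran from 0.91 for Slc22a27 to 0.85 for Ugdh. Slc22a27, an organic anion transporter, rose by 1.44 per unit of Pparg (SE 0.13), and Gpx4, the enzyme that reduces lipid peroxides in membranes, by 0.37 (SE 0.04).

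The lipid storage genes known to be bound by PPARγ had 14 members tested of 16. Of these, 6 rose with Pparg, beside 4.68% of all genes, and 0 fell, beside 1.23%, with a median r of 0.44. Mogat1, which makes diacylglycerol, had r = 0.83, and the lipid droplet proteins Cidea and Cidec had 0.79 and 0.69. Fitm1, which partitions fat into droplets, had r = 0.69, the droplet coat protein Plin4 0.65 and the glycerol channel Aqp7 0.62. The mean log2 intensity of Aqp7 was 3.95 in C, 4.29 in MF, 3.65 in INT and 4.14 in CR. All these means lay below the intensity minimum, so the relation of Aqp7 with Pparg is uncertain. Cidea lay below that minimum in INT and CR (means of 3.98 and 3.63), and Mogat1 in CR (3.97). Their relations with Pparg in those diets cannot be judged.

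By diet, several genes of the list fell in CR while Pparg was not called. In CR against MF, 7 of the 14 fell, beside 11.2% of all genes, and 1 rose, beside 8.57%, with a median log2 fold change of -0.29. Cidec was lower by -3.44 (SE 0.63, limma adjusted p = 0.000234), Cidea by -2.69 (SE 0.67), Fitm1 by -2.11 (SE 0.20) and Mogat1 by -1.89 (SE 0.41), while Pparg came to 0.10 (95% interval -0.43 to 0.63). The CR means of Cidea and Mogat1 lay below the intensity minimum of 20, so the size of their falls in CR is uncertain. In CR against C, 5 of 14 fell, beside 9.05% of all genes, and 1 rose, beside 8.46%, with a median of -0.32. Cidec was lower by -3.03 (SE 0.63), Cidea by -2.04 (SE 0.67) and Fitm1 by -1.92 (SE 0.20), and Me1, malic enzyme, was higher by 0.98 (SE 0.17, adjusted p = 0.00017). Of 4 fat cell markers tested, Lipe and Car3 fell in both comparisons as well, while Retn and Plin1 were not called in either. Of all genes, 11.2% fell against MF and 9.05% against C. The summed intensity of that list was 4349 to 6509 in CR and 8184 to 9969 in the other diets, with Adipoq and Lep above 20 on 0 arrays. Most of that sum was Car3, with means of 8538 in C, 8654 in MF, 8471 in INT and 5488 in CR. The part of fat cells in the fall was not tested.

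The values by liver show the size of these differences. Cidec had a lowest, median and highest log2 intensity of 7.35, 8.75 and 10.26 in C and of 6.19, 9.80 and 10.78 in MF. It had 6.20, 7.48 and 9.26 in INT, and 5.26, 5.47 and 6.06 in CR, and all 6 CR-fed livers were below every other liver. Fitm1 was 7.79 to 8.87 in CR and at least 9.52 in every other liver. Mogat1 and Cidea overlapped between CR and the other diets, with Mogat1 at 3.23 to 4.74 in CR and 4.03 to 6.64 in C, and Cidea at 3.34 to 3.84 in CR and 3.70 to 7.84 in C.

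**Figure D5:**
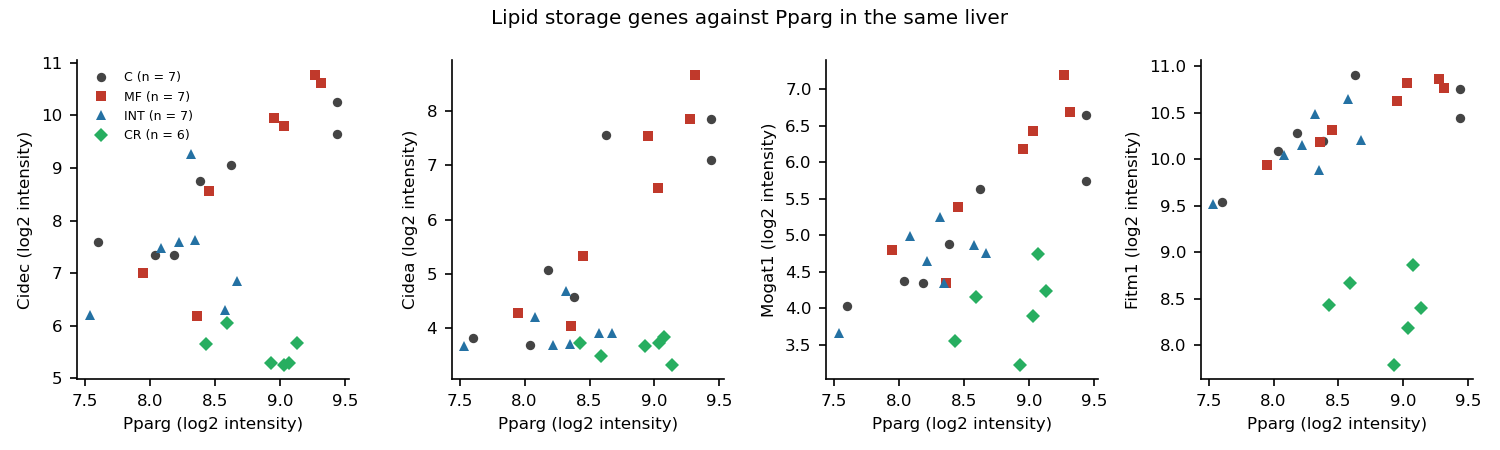
Log2 intensity of 4 lipid storage genes (vertical axes) against Pparg (horizontal axes), with 1 point per liver and the diet by shape and colour. The C- and MF-fed livers climb with Pparg, while the 6 CR-fed livers lie low in Cidec and Fitm1, Cidec at 5.26 to 6.06 and Fitm1 at 7.79 to 8.87.

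Other fatty acid binding and transport genes had 10 members tested of 16, and 0 rose or fell with Pparg (median r 0.11), beside 4.68% and 1.23% of all genes. In CR against MF, 2 were higher, beside 8.57% of all genes, and 2 lower, beside 11.2%, with a median log2 fold change of -0.02. The acyl-CoA synthetases Acsl4, at 0.75 (SE 0.09), and Acsl5, at 0.32 (SE 0.09), rose. Slc27a2, the main fatty acid transport protein of liver beside Slc27a5, fell by 0.35 (SE 0.06) and Fabp1, the liver type of binding protein, by 0.32 (SE 0.07). The same 4 genes were called in CR against C, at 0.59, 0.25, -0.41 and -0.31 in that order, beside 8.46% of all genes higher and 9.05% lower.

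Genes of lipoprotein lipolysis and uptake had 14 members tested of 19. Apoc2, the cofactor of lipoprotein lipase, was the 1 that rose with Pparg (r = 0.74, limma adjusted p = 0.00560), beside 4.68% of all genes. In CR against MF, 4 rose, beside 8.57% of all genes, and 1, Lrp1, fell, beside 11.2%, with a median of 0.06. In CR against C 4 rose, beside 8.46%, and 0 fell, beside 9.05%, with a median of -0.04. Angptl8, an inhibitor of the lipase made by the liver, was higher by 0.67 (SE 0.22) against MF and 0.71 (SE 0.22) against C. Lsr, a lipoprotein receptor, was higher by 0.40 in both, Sdc1, a heparan sulfate proteoglycan that binds lipoproteins, by 0.35 and 0.47, and Gpihbp1, which carries the lipase to the vessel wall, by 0.30 and 0.32.

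Partners and coregulators of PPARγ had 20 members tested of 22. With Pparg, 0 rose, beside 4.68% of all genes, and 2 fell, beside 1.23%, Klf15 (r = -0.60) and Ppargc1b (r = -0.55). In CR against MF, 3 of the 20 rose, beside 8.57% of all genes, and 3 fell, beside 11.2%, with a median of 0.02. Ppargc1a, the coactivator of fasting metabolism, was higher in CR by 2.04 (SE 0.16, limma adjusted p = 1.47e-09) against MF and 1.63 (SE 0.16) against C. Klf15 was higher by 0.77 and 0.46, and Cebpd lower by -0.42 and -0.59. Rxrg fell against MF by 0.41 (SE 0.12), and Ppara, the receptor that drives fatty acid oxidation, fell against C by 0.35 (SE 0.08) and against MF by 0.37.

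Markers of other cells moved with Pparg as well. Of all genes, 4.68% rose with it and 1.23% fell. Of 5 measured genes of lipid-associated macrophages, 4 rose with Pparg, Mmp12 (r = 0.78), Gpnmb (0.75), Trem2 (0.64) and Itgax (0.63), and Cd9 (0.56) did not pass. Their summed intensity was 229 to 929 in C, 243 to 804 in MF, 235 to 271 in INT and 292 to 363 in CR. Gpnmb exceeded an intensity of 20 on only 8 arrays, with mean intensities of 38.0 in C and 42.2 in MF. Its means of 12.8 in INT and 13.6 in CR lay below that intensity, so its relation with Pparg in those diets cannot be judged. Of 8 general macrophage markers 1 rose, Cd68, and 1 fell, Marco, and of 8 endothelial markers 1 rose, Lyve1. Of 4 fat cell markers, 7 hepatocyte markers, 5 muscle markers and 2 intestinal markers tested, 0 rose and 0 fell. Macrophages also make CD36, FABP4 and PPARγ, and the part of these cells in the relations was not tested.

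The spread between livers was compared for C and MF against INT and CR, as the mean absolute deviation from the diet median. For Cd36 it was 0.76 in C and MF and 0.28 in INT and CR, a difference of 0.48 (SE 0.17, unadjusted p = 0.00849, limma adjusted p = 1.0). For Fabp4 it was 0.38 and 0.12, and for Pparg 0.47 and 0.23. None of the 9 genes passed in limma, where 0% of all genes had a wider and 0.00735%, 1 gene, Bhmt, a narrower spread in C and MF. That single call was lost on leaving out any of the 6 CR-fed mice. In simulated data the same test made no adjusted call even for large differences. It therefore cannot decide whether the 9 genes differ in spread. At an unadjusted p under 0.05, 547 of 13603 genes and, of the 9, Cd36 and Fabp4 differed.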

How the data were processed

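Liver RNA with an integrity number above 8.0 was labelled by the authors. The deposited values are log2 intensities, normalized together by the authors with RMA (background correction, quantile normalization, 1 value per probe set), with no version given in the sources used here. The methods describe probe sets for Entrez genes, while the 35556 probe sets of the table are those of the manufacturer. Of these, 21218 were annotated to 1 gene, and those with several genes (1881) or none (12457) were left out. A gene table of GRCm38.p6 gave the symbol of 18790 of 18820 genes. The closest pair of arrays shared 138 identical values.

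Genes needed an intensity above 20 on at least 5 arrays. Diets were compared by limma 3.58.1 (R 4.3.3), with a constant prior variance and no robust step, in a single model of all 27 arrays, adjusted by Benjamini-Hochberg over all genes. The association fit used a mean per diet plus Pparg. Permutation tests were 2-sided, with 100000 resamples within diets, or exact within 1 diet, in Python 3.11.15 with numpy 2.4.6, scipy 1.17.1 and pandas 2.3.3, and figures used matplotlib 3.10.9. The code was tested on simulated data. There the spread test made no adjusted call even for large differences, so a spread that misses the threshold is not shown to be equal. The labels give separate mice, and groups came from their diet labels.

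The 9 genes, the lists and the tests were chosen with earlier results of these data known. The text names the 9 genes, the 10 genes of highest correlation with Pparg, and in each list up to 4 called genes of largest change in CR against MF and CR against C. Genes that rise with Pparg, markers, Lrp1 and Bhmt were named beyond that rule, after their values were seen. Alternatives were the intensity minimum, the probe set, the scaling, the variance model, array weights and the diets fitted. Others were the replicate number or the replicate set as a block, either set alone, Tukey's pairwise comparison and leaving out each mouse. Body weights and PCR values were not used here.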

Additional observations from a re-analysis of the deposited data

Results flagged for a closer look

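Fabp4 in INT replicate 7, at 6.81 on the log2 scale, stood above the other 6 INT-fed livers. The gap to the next was 0.601 of the range of the 7 livers. In all, 36 groups (9 genes in 4 diets) were examined and 1 was marked, and chance marks about 1 group in 20.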

How the results depend on the processing

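Differences between diets with an unadjusted p under 0.05 kept their direction under every alternative run, and so did the slopes on Pparg in the fits over all genes, while the correlation of Lpl with Pparg was -0.16 within replicates 5 to 7. Within replicates 5 to 7 alone (11 livers), 0 of the 9 genes were called in CR against C, CR against MF or INT against CR, and over all genes 497, 331 and 347 were called there against 2382, 2690 and 2039 in the full fit. Within replicates 1 to 4, 1226, 1977 and 1038 genes were called. With Tukey's pairwise comparison, adjusted over genes, 1231, 1455 and 1055 were called. That test called 1 of the 9 genes in CR against C, Fabp2, since Vldlr had an adjusted p of 0.0787. Unadjusted, that test passed 3 of the 9 in INT against MF and 1 in MF against C, where 356 and 80 of 13603 genes passed. For INT against CR, 6 of the 9 were called with only those diets in the fit, and 2068 of 13603 genes. Replicate numbers were not shown to pair the mice. The deviations of same-numbered mice had a median correlation between 0.01 and 0.15 over the 6 comparisons, and those of differently numbered mice between -0.03 and 0.003. In each comparison, 1 to 4 of the 6 or 7 mice correlated best with their own number. Whether mice of 1 replicate number share an effect was not tested. With the replicate block, 5 of the 9 genes and 2079 of 13603 were called in INT against CR, Cd36 (adjusted p = 0.0330) and Pparg (0.0444) being added, Slc27a1 was called in CR against C (0.0494), and the genes associated with Pparg fell from 803 to 132, with 1 of the 8, Cd36 (0.00769), remaining and Slc27a4 (0.0656), Vldlr (0.131) and Fabp4 (0.144) not called. Leaving out 1 mouse at a time, the genes associated with Pparg numbered 378 to 965, with 378 without C replicate 5 and 532 without MF replicate 1, and genes of unequal spread 0 to 3 against 1. The latter count was also 0 with trended and robust variances. The correlation of Pparg with Vldlr turned to -0.59 within CR. The causes of these shifts were not tested.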
